A study of Caenorhabditis elegans and Caenorhabditis briggsae with 26 samples.

Results

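The annular furrow collagens are 6 cuticle collagens, DPY-2, DPY-3, DPY-7, DPY-8, DPY-9 and DPY-10, and their genes were followed here at every stage of 2 nematode species. They were taken by sequence name from the deposited table, dpy-2 as T14B4.6, dpy-3 as EGAP7.1, dpy-7 as F46C8.6, dpy-8 as C31H2.2, dpy-9 as T21D12.2 and dpy-10 as T14B4.7. All 6 of 6 were found among 21774 gene IDs, and each also carried C. briggsae values, listed under its C. elegans ID.

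The cuticle of a nematode is an extracellular coat of cross-linked collagens that the epidermis secretes and that is replaced at every molt, first in the embryo and then at the end of each larval stage. In C. elegans the furrow collagens lie in the circumferential grooves between the ridges called annuli, where they assemble interdependently. Loss of any of them removes the furrows, shortens the body to the dumpy shape, and switches on osmotic, detoxification and innate immune genes in the epidermis. Within a C. elegans molting cycle their transcripts are known to appear early, ahead of collagens such as DPY-5 and DPY-13.

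The animals were the wild-type strains N2 of C. elegans and AF16 of C. briggsae, kept at 20 °C in liquid culture on bacteria. Mixed embryos (E) came from bleached gravid adults, and the rest of the embryos hatched without food, so that all later stages passed through a starved L1 arrest before feeding. In C. elegans the larval stages L1, L2 and L3 were collected after 7, 20 and 29 h of feeding, early and late L4 (LL4) after 41 and 52 h, and young adults (YA) before they carried embryos after 57 h. The C. briggsae times in the same order were 6, 20, 28, 41, 53 and 63 h. A first time course A covered all stages and a repeat B gave embryos and L1 larvae, so these 2 stages had n = 2 cultures, with culture A sequenced as 2 libraries (A1 and A2). Every later stage had 1 library. Another 2 libraries per species came from a mixed-stage reference pool (REF), which made 13 libraries per species.

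The values are RPKM, reads per kilobase of gene model scaled to the mapped reads of the library, from poly(A) RNA of whole animals. Read depth is not known from such values, so no counting interval is given, and no value in the table equals 0, so a level well under 1 RPKM lies near the bottom of the scale. Between libraries A1 and A2 of 1 sample, members of at least 10 RPKM in both differed by up to 1.97-fold (dpy-3 in C. elegans embryos). This serves as a yardstick where a stage had 1 library, but it does not cover the spread between cultures. In C. briggsae embryos library A1 exceeded library B by 3.61-fold for dpy-10 and by 5.33-fold for dpy-2. Of 9 epidermal marker genes, 8 were matched, and their summed level lay between 95.6 and 780.2 RPKM in every C. elegans stage and between 149 and 483 RPKM in every C. briggsae stage, lowest in young adults of both. In whole animals, fewer epidermal cells and less RNA per cell cannot be told apart.

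The C. elegans genes lie on 3 chromosomes in WBcel235. dpy-10 (chromosome II, 6710149 to 6712227, minus strand, 5 exons) and dpy-2 (II, 6714292 to 6715971, plus strand, 5 exons) stand head to head, with 2064 bases between their starts. dpy-3 (X, 2144605 to 2145647, 2 exons), dpy-7 (X, 7536467 to 7537792, 2 exons) and dpy-8 (X, 5148804 to 5150476, 4 exons) are on the minus strand of X, and dpy-9 (IV, 257403 to 259204, 4 exons) on the minus strand of IV. Their coding sequences run from 302 codons in dpy-3 to 452 codons in dpy-8.

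DPY-10 is the furrow collagen best known for a dominant allele that makes the animals roll. In C. elegans its transcript stood at 389.6, 363 and 386 RPKM in embryo libraries A1, A2 and B, and at 6.09, 1.199 and 7.00 RPKM in the L1 libraries in the same order. It then read 6.83 RPKM in L2, 72.9 in L3, 308 in early L4, 290.2 in late L4 and 2.54 in young adults. Embryos, early L4 and late L4 were thus the high stages, and no L1, L2 or adult library came near them. In C. briggsae the embryo libraries gave 45.1, 34.0 and 12.5 RPKM and the L1 libraries 3.10, 3.70 and 2.12 RPKM. L2 followed at 27.8 RPKM, L3 at 353, early L4 at 96.7, late L4 at 20.8 and young adults at 0.501. Here a single stage, L3, stood above the rest.

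DPY-2, the neighbour of DPY-10, gives a recessive dumpy body when lost. In C. elegans dpy-2 read 288, 263 and 271 RPKM in embryos, 3.56, 0.967 and 2.82 RPKM in L1, and then 6.94, 90.3, 315, 298 and 0.784 RPKM from L2 to young adults. In C. briggsae the embryos held 32.3, 24.4 and 6.05 RPKM, L1 larvae 3.12, 3.92 and 1.53 RPKM, and the later stages 32.6, 394, 127, 23.4 and 0.603 RPKM. L3 was again the highest stage in C. briggsae. In C. elegans early L4 gave the highest value, but it did not differ from the embryo libraries beyond the 1.97-fold yardstick.

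DPY-3 and DPY-7 are also early-cycle furrow collagens, and the short dpy-7 promoter is widely used to drive genes in the epidermis. For dpy-3, C. elegans embryos gave 498, 253 and 304 RPKM, L1 larvae 1.95, 0.189 and 1.26 RPKM, and L2 to young adults 9.72, 139, 258, 382 and 0.744 RPKM. Its C. briggsae values were 27.8, 16.1 and 5.26 RPKM in embryos, 2.56, 2.44 and 1.15 RPKM in L1, and 55.1, 634, 160.2, 32.1 and 0.962 RPKM afterwards. The L3 value of 634 RPKM in C. briggsae was the highest of any member in any library.

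For dpy-7, C. elegans embryos held 368, 233 and 275 RPKM, L1 larvae 3.83, 0.261 and 4.12 RPKM, and L2 to young adults 7.65, 84.9, 335, 340.4 and 0.133 RPKM. In C. briggsae it read 31.2, 22.8 and 9.76 RPKM in embryos, 1.84, 2.76 and 0.530 RPKM in L1, and 36.1, 428, 94.3, 25.5 and 0.181 RPKM from L2 on. It was the lowest member in young adults of both species.

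DPY-8 and DPY-9 complete the group, and they differed from the other 4 in embryos. dpy-8 stood at 1.07, 0.840 and 0.875 RPKM in C. elegans embryos and at 0.0851, 0.407 and 0.195 RPKM in C. briggsae embryos. dpy-9 stood at 4.45, 1.57 and 3.39 RPKM and at 0.211, 0.560 and 0.369 RPKM in the same libraries. The lowest of the other 4 in any embryo library was 233 RPKM in C. elegans (dpy-7) and 5.26 RPKM in C. briggsae (dpy-3), so the groups of values did not overlap in either species. dpy-8 and dpy-9 were set apart by these same values, so the lack of overlap is a description.

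After hatching, dpy-8 and dpy-9 followed the others. In C. elegans dpy-8 read 0.865, 0.969 and 0.403 RPKM in L1 and then 8.81, 131, 256, 424 and 0.823 RPKM, and dpy-9 read 1.94, 0.355 and 3.36 RPKM in L1 and then 9.18, 99.8, 384, 363 and 1.04 RPKM. In C. briggsae the L1 libraries gave 2.31, 1.49 and 1.84 RPKM for dpy-8 and 0.679, 0.350 and 1.1002 RPKM for dpy-9. The later C. briggsae stages gave 35.3, 503, 146, 28.0 and 1.11 RPKM for dpy-8 and 33.2, 378, 112, 27.2 and 0.315 RPKM for dpy-9. Within a library, the highest member exceeded the lowest by 432-fold to 464-fold in C. elegans embryos and by 64.1-fold to 531-fold in those of C. briggsae. From L2 to late L4 that ratio was 1.42 to 1.91 in C. elegans and 1.54 to 1.98 in C. briggsae. In the mixed reference it was 2.73 and 2.81 in C. elegans and 2.13 and 1.34 in C. briggsae (A1 and A2).

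**Figure D1:**
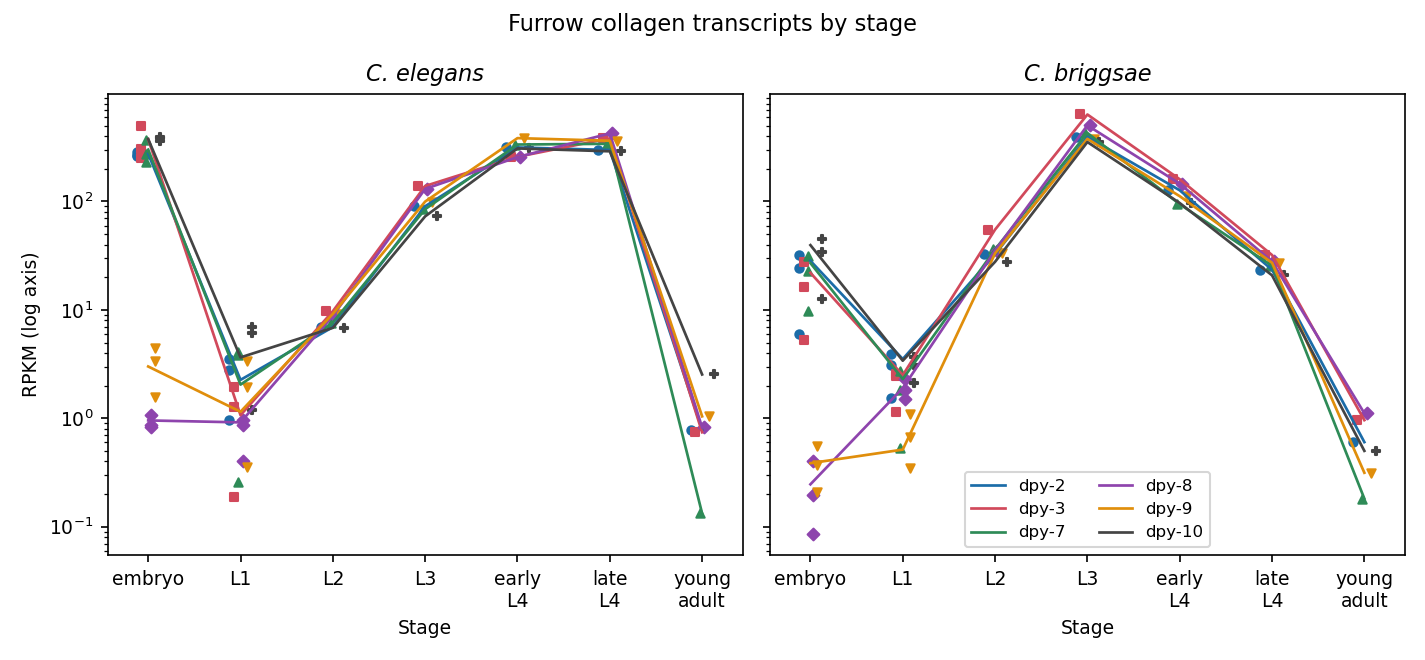
RPKM (log axis) of the 6 furrow collagen genes by stage, with a point for each library and lines through culture A, in C. elegans (left) and C. briggsae (right). In C. elegans embryos dpy-8 and dpy-9 lie between 0.840 and 4.45 RPKM and the other 4 between 233 and 498 RPKM, and after L1 all 6 run together, to early or late L4 in C. elegans and to L3 in C. briggsae.

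Embryos and L1 larvae were compared to ask which of these transcripts differ across hatching and first feeding. In C. elegans, dpy-2, dpy-3, dpy-7 and dpy-10 were far higher in embryos, where the first cuticle is made, than in fed L1 larvae, while dpy-9 was not called and dpy-8 was too low to test. dpy-3 averaged 339.6 ± 50.5 RPKM (SD, n = 2 cultures) in embryos against 1.17 ± 0.138 RPKM (SD, n = 2 cultures) in L1. That was a log2 difference of 7.32 ± 0.23 (SE), with an adjusted p of 3.75e-06 in limma on log2(RPKM + 1). dpy-2 stood at 273 ± 3.26 against 2.54 ± 0.393 RPKM (6.34 ± 0.22, limma adjusted p = 3.97e-06) and dpy-7 at 288 ± 18.4 against 3.09 ± 1.47 RPKM (6.32 ± 0.35, limma adjusted p = 1.15e-05). dpy-10 stood at 381 ± 6.94 against 5.32 ± 2.37 RPKM, a log2 difference of 6.09 ± 0.33 (limma adjusted p = 1.15e-05).

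For dpy-9 the means were 3.20 ± 0.274 RPKM before and 2.26 ± 1.57 RPKM after hatching, a log2 difference of 0.46 ± 0.38 with a limma adjusted p of 0.298. This value changed sign without L1 culture A (-0.11) and passed the threshold without L1 culture B (1.02, limma adjusted p = 0.0173). dpy-8 (0.916 ± 0.0575 against 0.660 ± 0.364 RPKM) reached 1 RPKM in none of the 4 cultures and was not tested. So 4 of 5 tested members were called, all higher, against 70.8% of 15277 genes called either way and 42.6% called higher, where the median gene lay 0.33 above 0. The L1 levels moved between libraries together with transcripts made in the embryo: the embryonic collagen dpy-14 read 20.1, 0.396 and 6.35 RPKM in L1 libraries A1, A2 and B, dpy-17 17.5, 0.854 and 7.22 RPKM, and the hatching protease gene hch-1 1.21, 0.0129 and 0.541 RPKM. Libraries A1 and B were also the higher ones for 5 of the 6 members, dpy-8 being the exception. This pattern was not counted over all genes. Some genes not called higher in embryos were lowest in A2 too, such as hmit-1.1 (15.5, 4.05 and 29.2 RPKM) and myrf-1 (38.9, 18.8 and 61.9 RPKM). In contrast, osm-11 was highest in A2 (242, 263 and 188 RPKM). The part of embryonic RNA in the L1 values was not tested.

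In C. briggsae the same 4 genes were higher in embryos, at lower embryo levels and by smaller differences. dpy-10 averaged 26.03 ± 19.1 RPKM (SD, n = 2 cultures) in embryos against 2.76 ± 0.905 RPKM (SD, n = 2 cultures) in L1, a log2 difference of 2.65 ± 0.56 (SE) with a limma adjusted p of 0.00750. dpy-7 stood at 18.4 ± 12.203 against 1.42 ± 1.25 RPKM (2.95 ± 0.59, limma adjusted p = 0.00613). The differences of dpy-3 (13.6 ± 11.8 against 1.83 ± 0.950 RPKM) and dpy-2 (17.2 ± 15.8 against 2.52 ± 1.41 RPKM) were 2.10 ± 0.65 and 2.09 ± 0.72, with limma adjusted p-values of 0.0299 and 0.0434. dpy-8 stood at 0.221 ± 0.0362 against 1.87 ± 0.0398 RPKM, a log2 difference of -1.23 ± 0.17. It entered the fit only through its L1 values, so it is given as a description. dpy-9 (0.377 ± 0.0116 against 0.807 ± 0.414 RPKM) did not pass the filter.

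In C. briggsae embryos culture B lay below culture A for all 4 genes, and the calls depended on single cultures. For dpy-2 the difference ran from 1.06 to 3.11 as single cultures were left out. Without L1 culture A 2 of the 4 calls were left and without L1 culture B 0, and median-ratio scaling also left 2. The background was also high, with 74.3% of 11891 orthologs called, 32.8% higher and 41.5% lower in embryos. In the embryo libraries the summed level of the 3 body wall muscle markers followed the members, at 41.8, 35.3 and 5.20 RPKM in A1, A2 and B, while the 8 epidermal markers summed to 452, 428 and 483 RPKM. Most of that sum was elt-1 (189, 162 and 196 RPKM) and lin-26 (112, 121 and 127.5 RPKM), and some epidermal markers were lower in B. mup-4 read 6.43, 5.15 and 0.696 RPKM, vab-10 15.3, 15.9 and 8.02 RPKM, and che-14 3.83, 4.08 and 2.301 RPKM, and their part in the members' values was not tested.

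**Figure D2:**
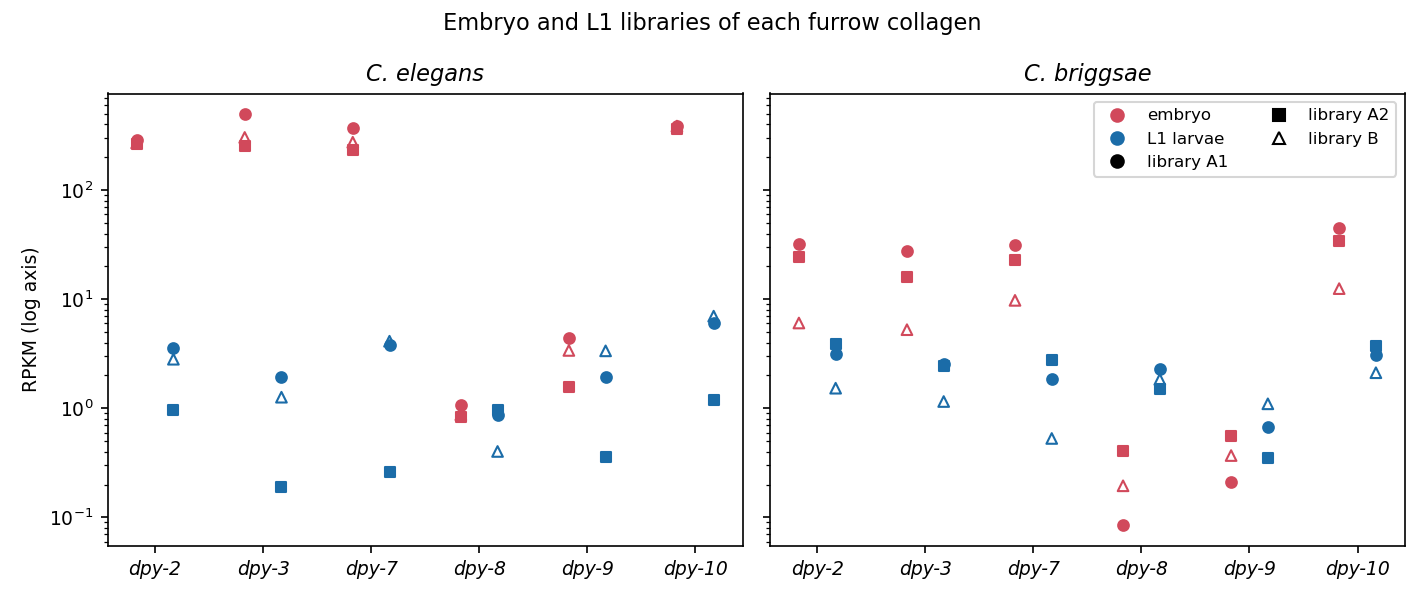
RPKM (log axis) of each furrow collagen in every embryo (red) and L1 (blue) library, with circles, squares and open triangles for libraries A1, A2 and B. The C. elegans embryo values of dpy-2, dpy-3, dpy-7 and dpy-10 (233 to 498 RPKM) lie far above all L1 values, the C. briggsae ones lie between 5.26 and 45.1 RPKM, and dpy-8 and dpy-9 do not exceed 4.45 RPKM.

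The species difference in the embryo to L1 contrast was tested directly as an interaction over 8 cultures. It was called negative, a smaller embryo excess in C. briggsae, for dpy-2, dpy-3, dpy-7 and dpy-10, against 50% of 12603 genes called either way and 32.8% in that direction. The differences were -5.22 ± 0.76 for dpy-3 (limma adjusted p = 0.00134), -4.25 ± 0.84 for dpy-2 (0.00453), -3.43 ± 0.73 for dpy-10 (0.00633) and -3.37 ± 0.78 for dpy-7 (0.00868). dpy-9 at -0.83 ± 0.50 was not called (limma adjusted p = 0.198). dpy-8 gave -1.46 ± 0.25, but it reached 1 RPKM in C. briggsae L1 alone and entered the fit only through that group, so its value is a description. Neither dpy-8 nor dpy-9 was higher in C. briggsae embryos than in L1. The call of dpy-7 was lost with a pseudocount of 0.1 (limma adjusted p = 0.0506).

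Muscle markers moved the same way. Their sum was 245 to 288 RPKM in C. elegans embryos and 5.20 to 41.8 RPKM in C. briggsae embryos, and all 3 had a negative called interaction. Of the 8 epidermal markers, which summed to 589.8 to 780.2 and to 428 to 483 RPKM, 5 had a lower and 1 a higher called interaction. The ages within the mixed embryos are not recorded, and a difference in age and a difference between the species cannot be told apart. Among 14 other collagens that shape the body, 11 could be tested and 6 were lower and 4 higher in this interaction. Over all 12603 genes, 50% were called either way and 32.8% lower. The largest were sqt-3 (-5.68), dpy-14 (-5.13) and dpy-17 (-4.94). By culture, dpy-5 reached 1 RPKM in C. elegans embryos alone and dpy-4 in C. briggsae L1 alone, so their part in the counts is a description.

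From L1 to L3 the 6 transcripts were higher at each step of culture A in both species. In L2 they stood 1.87-fold (dpy-10) to 9.60-fold (dpy-8) above L1 in C. elegans and 8.17-fold (dpy-10) to 64.5-fold (dpy-9) above L1 in C. briggsae. On log2(RPKM + 1), 5 of 6 passed 2-fold in C. elegans, where 7.67% of 14690 genes did, and 6 of 6 in C. briggsae, where 8.76% of 11832 did. dpy-10 came to 0.99 in C. elegans, and its L1 culture B (7.00 RPKM) stood above its L2 library (6.83 RPKM). With L1 library A1 alone 3 members passed. The C. elegans L2 library also held adult transcripts, with the yolk protein gene vit-2 at 6.70%, vit-6 at 4.47% and the adult collagen gene col-19 at 0.956% of their young adult levels, and their part in its member values of 6.83 to 9.72 RPKM was not tested.

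The step from L2 to L3 was of similar size in both species. The fold ran from 10.7 (dpy-10) to 14.8 (dpy-8) in C. elegans and from 11.4 (dpy-9) to 14.3 (dpy-8) in C. briggsae, in each case beyond the yardstick between libraries of 1 sample. All 6 members passed 2-fold in both species, as did 2.45% of 10563 ortholog pairs (9.16% of genes in C. elegans and 5.91% in C. briggsae alone). In the additive limma fit of culture A, each stage is replicated by the other species. It called 0 of 6 members and 0 of 12945 genes here (0%), with 413 genes (3.19%) at an unadjusted p under 0.05. The members gave log2 differences of 3.39 to 3.77, and 6 of 6 had an unadjusted p under 0.05. These estimates moved widely with single libraries left out, from 1.65 to 5.21 for dpy-10 and from 2.58 to 4.96 for dpy-8, and stayed positive for all 6. From L1 to L2 the same fit also called 0 genes, 576 (4.45%) had an unadjusted p under 0.05, and 2 of them were members, dpy-8 and dpy-9.

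After L3 the libraries of the species parted. From L3 to early L4 each of the 6 was higher in C. elegans and lower in C. briggsae, so that L3 was the highest larval stage for 6 of 6 in C. briggsae and for none in C. elegans. Over all stages from L1 to young adult, 8.99% of 12660 C. briggsae orthologs and 9.15% of 16795 C. elegans genes were highest in L3. The C. elegans folds of dpy-3 (1.86) and dpy-8 (1.96) lie within the 1.97-fold seen between libraries of 1 sample. On the log2(RPKM + 1) scale the early L4 minus L3 difference was 2.07 for dpy-10, 1.97 for dpy-7, 1.93 for dpy-9, 1.79 for dpy-2, 0.97 for dpy-8 and 0.89 for dpy-3 in C. elegans. In C. briggsae it was -2.17 for dpy-7, -1.98 for dpy-3, -1.86 for dpy-10, -1.78 for dpy-8, -1.75 for dpy-9 and -1.63 for dpy-2. In fold terms C. elegans early L4 larvae had 1.86 to 4.23 times the L3 level, and C. briggsae early L4 larvae were 3.11-fold to 4.53-fold below it. The C. briggsae folds do not exceed the 5.33-fold (dpy-2) between libraries A1 and B of its embryos.

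With 1 library per stage and species this opposite movement has no replicate check and no p-value. The labels give hours of feeding and not the place of a harvest within the molting cycle. A difference in that place and a difference between the species cannot be told apart. Moving at least 2-fold up in C. elegans and 2-fold down in C. briggsae held for 4 of 6 members and for 1.16% of 10508 ortholog pairs, and the exceptions dpy-3 and dpy-8 missed the line only in C. elegans. Singly, 6.73% of 13840 C. elegans genes were at least 2-fold higher and 2.94% of 11618 C. briggsae orthologs at least 2-fold lower. The additive fit, which counts an opposite movement as error, called 0 of 6 members and 0 genes, with 0 members and 105 genes (0.811%) at an unadjusted p under 0.05. Its member estimates lay between -0.54 and 0.10.

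Several other collagens moved the other way, and some of them hardly changed in C. briggsae. Of the body-shape collagens measured in this step, 9 of 12 were lower in C. elegans and higher in C. briggsae, and 2 of 12 the reverse. By the same sign count 3223 and 2984 of 10508 ortholog pairs did so. In C. briggsae sqt-1 (0.04), sqt-2 (0.13), sqt-3 (0.21) and rol-8 (0.22) changed by less than the yardstick between libraries of 1 sample. dpy-14 stood there at only 1.11 RPKM in L3 and 2.64 RPKM in early L4. dpy-13 (-2.58 and 1.46), dpy-5 (-2.36 and 1.43), dpy-4 (-2.32 and 1.33) and rol-6 (-1.84 and 1.06) passed 2-fold both ways, as did 4.92% of pairs, and 0 did so in the direction of the furrow collagens. Of 9 molting cycle regulators, the nuclear receptor gene nhr-23 (1.24 and -1.66) and the transcription factor gene myrf-1 (1.04 and -2.21) passed 2-fold in the furrow direction, and bed-3 (-2.26 and 1.29) in the opposite one. Epidermal markers summed to 341 RPKM in L3 and 321 RPKM in early L4 of C. elegans, and to 311 and 313 RPKM in C. briggsae, so their sum differed less between the stages than any member did. Singly, lin-26 (1.78 and -0.48) and elt-3 (1.29 and -0.52) were at least 2-fold higher in C. elegans, and mup-4 (-2.59 and 2.82) moved 2-fold the other way in both species.

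**Figure D3:**
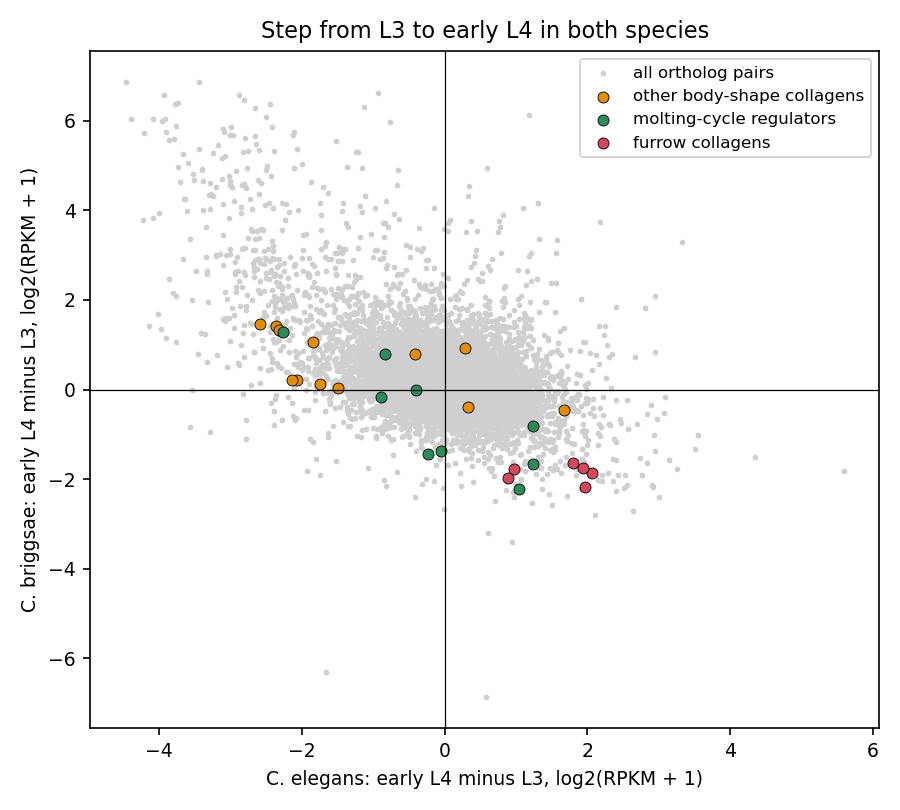
Early L4 minus L3 on log2(RPKM + 1) in C. elegans (x axis) and C. briggsae (y axis), with grey points for ortholog pairs, red for furrow collagens, orange for other body-shape collagens and green for molting cycle regulators, from 1 library per stage and species. All 6 red points lie right of 0 (0.89 to 2.07) and below 0 (-1.63 to -2.17), and 9 of 12 orange points lie in the opposite quadrant.

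**Figure D4:**
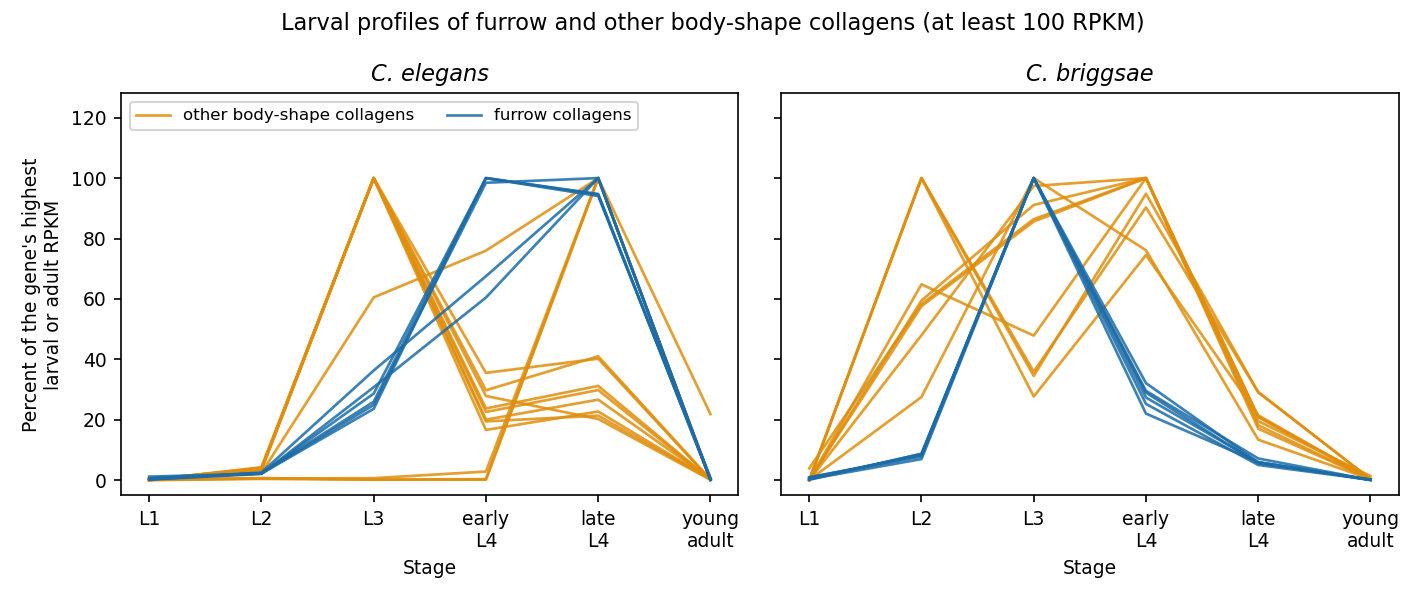
RPKM from L1 to young adult as a percent of each gene's own highest value in these stages, for furrow collagens (blue) and other body-shape collagens (orange) that reach at least 100 RPKM, from culture A. The blue lines peak in early or late L4 in C. elegans and in L3 in C. briggsae, while most orange lines peak in L3 in C. elegans and in L2, L3 or early L4 in C. briggsae.

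Between early and late L4 the C. elegans transcripts held their level and those of C. briggsae were lower. The late to early ratio was 0.941 (dpy-10) to 1.65 (dpy-8) in C. elegans, within the yardstick of 1.97, and 0 of 6 members passed 2-fold, against 4.22% of 13681 genes higher and 2.11% lower. In C. briggsae late L4 larvae were 3.69-fold (dpy-7) to 5.41-fold (dpy-2) below early L4, and 6 of 6 passed 2-fold, as did 14.7% of 11633 orthologs. Libraries A1 and B of C. briggsae embryos differed by up to 5.33-fold (dpy-2). The highest larval stage in C. elegans was early L4 for dpy-2, dpy-9 and dpy-10 and late L4 for dpy-3, dpy-7 and dpy-8, neighbours that did not differ beyond the yardstick. The additive limma fit called 0 members and 0 genes, with 0 members and 251 genes (1.94%) at an unadjusted p under 0.05. Its member estimates ran from -1.23 to -0.81.

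Young adults no longer molt, and the furrow collagens were near the bottom of the scale in them. Compared with late L4 they were 114-fold (dpy-10) to 2567-fold (dpy-7) lower in C. elegans and 25.2-fold (dpy-8) to 141-fold (dpy-7) lower in C. briggsae, folds that rest on adult values mostly under 1 RPKM. In the additive limma fit 5 of 6 were called lower, against 8.28% of 12945 genes called either way and 1.68% called lower. The differences were -6.36 ± 1.42 for dpy-7 (adjusted p = 0.0271), -5.95 ± 1.16 for dpy-9 (0.0148), -5.93 ± 1.48 for dpy-3 (0.0408), -5.82 ± 1.16 for dpy-8 (0.0166) and -5.66 ± 1.35 for dpy-2 (0.0350). dpy-10 gave -5.11 ± 1.36 and was not called (limma adjusted p = 0.0504).

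Each of these calls rests on single libraries. With the C. elegans late L4, the C. elegans young adult or the C. briggsae young adult library left out, 0 members were called, although every estimate stayed negative, at -3.40 to -8.18. Singly, 26.2% of 14749 C. elegans genes and 15.5% of 11620 C. briggsae orthologs were at least 2-fold lower in young adults, and 9.99% of 10535 pairs in both. Epidermal markers were lower too, with sums of 266 RPKM in late L4 and 95.6 RPKM in young adults of C. elegans and 196 and 149 RPKM in C. briggsae, and limma called 0 of the 8, with 5 at an unadjusted p under 0.05. The part of the epidermal share of RNA in the members' fall was not tested. Limma called 10 of 14 body-shape collagens lower, beside 1.68% of all genes, led by sqt-1 (-6.28), sqt-3 (-6.23) and dpy-4 (-6.05). Their list median was -5.62 beside -0.12 for all genes.

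Set side by side at each stage, the species took turns in having the higher level. Levels between species rest on each species' own gene models and on culture A alone, with no replicate check beyond the embryo and L1 tests. Here too, the place of a harvest within the molting cycle and the species cannot be told apart. In embryos 5 of 6 members were at least 2-fold higher in C. elegans (35.2% of 11566 pairs), the raw ratio running from 3.88 (dpy-8, which fell short after adding 1 RPKM) to 17.1 (dpy-3). These 2-fold counts are on log2(RPKM + 1). In L1 0 of 6 passed 2-fold either way on that scale (16.2% and 15.4% of 11923 pairs). The raw L1 ratio was 2.34 for dpy-3 and 2.07 for dpy-8, higher in C. briggsae, and 2.23 for dpy-9, higher in C. elegans. In L2 and L3 6 of 6 were at least 2-fold higher in C. briggsae, by 3.61 to 5.67 times and 3.79 to 5.04 times (18.9% of 11939 and 15.5% of 11773 pairs). In early L4 4 of 6 were higher in C. elegans (19.3% of 11829 pairs), and in late L4 6 of 6, by 11.9 (dpy-3) to 15.1 (dpy-8) times (21.2% of 11581 pairs). In young adults dpy-10 alone passed 2-fold on the log2(RPKM + 1) scale, higher in C. elegans (14.3% of 11229 pairs). The raw ratio of dpy-9 was 3.31 in the same direction, from 1.04 and 0.315 RPKM.

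Over the 7 stages these directions cancelled. The species term of the additive fit called 0 of 6 members (32.9% of 12945 genes), with 0 members and 44.1% of genes at an unadjusted p under 0.05, and its estimates ran from -0.80 ± 0.72 (dpy-10) to -0.10 ± 0.62 (dpy-8). In the mixed reference all 6 were higher in C. briggsae by the mean of the libraries. The C. elegans reference libraries A1 and A2 gave 36.3 and 30.1 RPKM for dpy-2, 39.0 and 20.6 for dpy-3, 58.8 and 52.5 for dpy-7, 25.4 and 22.0 for dpy-8, 69.4 and 57.9 for dpy-9, and 32.7 and 27.0 for dpy-10. The C. briggsae ones gave 78.9 and 58.4 RPKM for dpy-2, 129.6 and 78.4 for dpy-3, 74.2 and 68.3 for dpy-7, 102.9 and 70.6 for dpy-8, 81.7 and 58.5 for dpy-9, and 60.7 and 65.1 for dpy-10. Only the values of dpy-9 overlapped between the species. The libraries of a species come from the same pool, and neither direction nor overlap was counted over all pairs, so both are descriptions. How the stages were proportioned in these pools is not stated in the labels.

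The divergent neighbours dpy-10 and dpy-2 stood at similar levels from L2 to late L4, while dpy-10 was the higher of the pair in every embryo library. The ratio of dpy-10 to dpy-2 was 1.35 to 1.43 over the 3 C. elegans embryo libraries and 1.39 to 2.07 over the 3 of C. briggsae. From L2 to late L4 it was 0.807 to 0.984 in C. elegans and 0.763 to 0.896 in C. briggsae, and it was 0.897 and 0.900 in the C. elegans and 0.770 and 1.12 in the C. briggsae reference. The embryo ratios did not overlap those from L2 to late L4 in either species. In L1 larvae, where both genes were at 7.00 RPKM or less, the ratio was 1.71, 1.24 and 2.48 in C. elegans libraries A1, A2 and B and 0.994, 0.944 and 1.39 in those of C. briggsae. The young adult ratios were 3.24 in C. elegans and 0.830 in C. briggsae, so dpy-10 led outside embryos too. This pair was singled out after its values were seen, so the ratio is a description.

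**Figure D5:**
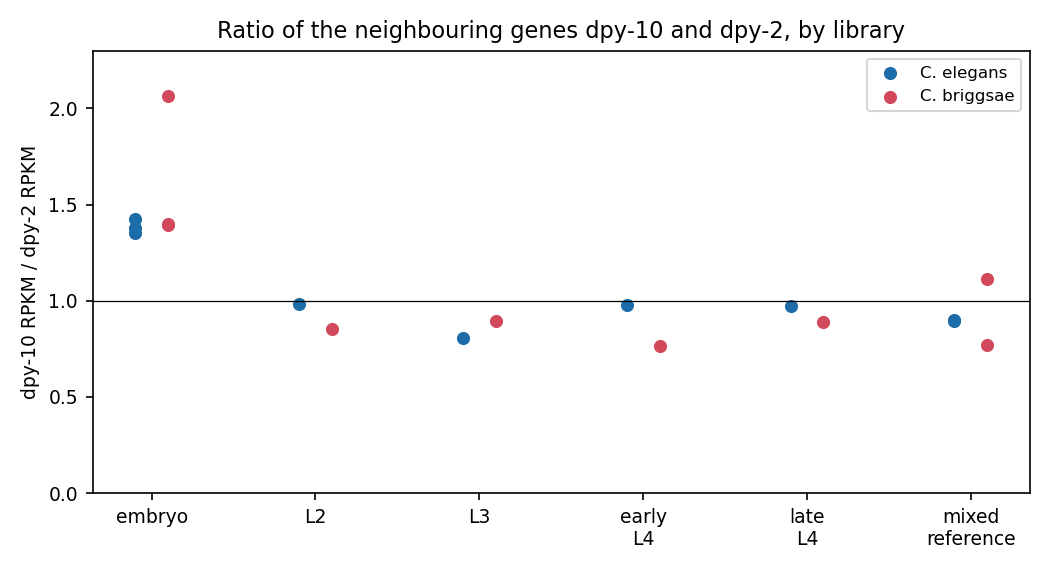
Ratio of dpy-10 RPKM to dpy-2 RPKM in each library of embryos, L2 to late L4 larvae and the mixed reference, for C. elegans (blue) and C. briggsae (red), with a line at 1. All 6 embryo points lie at 1.35 or above and all 8 points from L2 to late L4 lie below 1, with L1 and young adults not drawn.

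The members' profiles were close to each other once embryos were set aside. Over the 6 stages from L1 to young adult (culture A, log2(RPKM + 1)) Pearson's r of the 15 pairs was 0.98 to 1.00 in both species. With embryos included, n = 7 samples, it was 0.62 to 1.00 in C. elegans and 0.78 to 1.00 in C. briggsae. These points share libraries and are given as a description. Among 4944 ortholog pairs that could be compared, 83 had r above 0.9 with the mean member profile in both species, among them dpy-2, dpy-3, dpy-7 and dpy-10.

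The 8 non-members most like the mean profile in both species over 7 samples each were Y102A11A.5 (r = 0.989 in C. elegans and 0.990 in C. briggsae), mlt-11 (0.988 and 0.989), lpr-4 (0.987 and 0.988), lpr-5 (0.987 and 0.985), C01F1.5 (0.989 and 0.979), lpr-3 (0.976 and 0.979), lin-42 (0.973 and 0.984) and ptr-4 (0.981 and 0.968). mlt-11 encodes a protease inhibitor needed for molting, lpr-3 to lpr-5 encode lipocalins of the apical matrix, ptr-4 a Patched-related protein, and lin-42 the period homolog that times the molts. In C. elegans alone the nearest were C33B4.2 (0.994), the C-type lectin gene clec-180 (0.994) and Y102A11A.5, and in C. briggsae alone F49E10.2 (0.992), H03E18.1 (0.992) and Y102A11A.5. mlt-11 stood at 110.0 RPKM in C. elegans embryos, 0.569 in L1 and 261 in late L4, and in C. briggsae at 11.6 RPKM in embryos and 263 in L3. Its C. elegans maximum in late L4 was that of dpy-3, dpy-7 and dpy-8 among larval stages, and its C. briggsae maximum in L3 was that of all 6 members, in a gene chosen for its likeness to their mean.

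Enzymes and factors that hydroxylate, cut and cross-link collagens were counted in the same tests. Of 11 listed, 10 were tested between embryos and L1 in each species: 5 were higher and 2 lower in C. elegans embryos, led by the peroxidase gene mlt-7 (-3.05) and the prolyl 4-hydroxylase genes phy-2 (2.03) and dpy-18 (1.72). In C. briggsae 0 were higher and 4 lower, led by tsp-15 (-4.36), mlt-7 (-3.74) and dpy-31 (-2.82). Over all genes 42.6% were higher in C. elegans embryos, and in C. briggsae 32.8% were higher and 41.5% lower. The list medians were 0.48 and -0.16, beside 0.33 and -0.14 for all genes. From late L4 to young adults 1 of 11 was called lower, phy-2 (-2.17, limma adjusted p = 0.0372), as were 1.68% of all genes. The list median was -1.37 beside -0.12 for all genes. By single libraries 10 of 11 were at least 2-fold lower in C. elegans and 4 of 11 in C. briggsae, beside 26.2% and 15.5% of all genes.

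Regulators of the molting cycle were counted in the same way. Of 9, 6 were higher and 1 lower in C. elegans embryos than in L1 larvae, led by lin-42 (3.31), bed-3 (2.58) and nhr-85 (-2.13), with a list median of 1.41, where 42.6% of all genes were higher. In C. briggsae 1 was higher and 3 lower, led by nhr-85 (-3.69) and myrf-1 (-3.01), with a list median of -0.68, where 32.8% of all genes were higher and 41.5% lower. The interaction was called lower for 8 of 9 and higher for 0, where 32.8% of all genes were called lower. From late L4 to young adults 5 of 9 were called lower, beside 1.68% of all genes, led by lin-42 (-4.39), nhr-85 (-3.68) and myrf-1 (-3.48).

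The osmotic, detoxification and immune genes that respond in C. elegans to loss of furrows moved in both directions. Of 14 tested between embryos and L1 in C. elegans, 3 were higher and 3 lower, beside 70.8% of all genes called either way and 42.6% higher. They were led by osm-8 (4.39), osm-11 (-4.11) and the glycerol-3-phosphate dehydrogenase gene gpdh-1 (2.72), with a list median of 0.21 beside 0.33 for all genes. osm-8 reached 1 RPKM in embryos alone, so its value is a description. In C. briggsae 3 of 11 were higher and 6 lower, led by osm-11 (-7.41), hmit-1.1 (-5.47) and sta-2 (-4.40). Over all genes 32.8% were higher and 41.5% lower there, and the list median was -1.82 beside -0.14 for all genes. hmit-1.1 reached 1 RPKM in L1 alone, so its value is a description. From late L4 to young adults, where the members fell, limma called 0 of 13, beside 8.28% of all genes called either way. Of the 13, 2 had an unadjusted p under 0.05. The largest estimates were nlp-31 (-2.42), hmit-1.1 (-2.05) and osm-8 (-2.02), with limma adjusted p from 0.192 to 0.302. In C. elegans body-shape collagens split 7 higher and 1 lower of 8 between embryos and L1. They were led by dpy-14 (8.88), dpy-17 (8.78) and sqt-3 (8.68). In C. briggsae they split 8 higher and 1 lower of 9, led by dpy-17 (3.83), dpy-14 (3.75) and sqt-2 (3.49). The shares of all genes are those just given for each species. By culture, dpy-5, dpy-13, sqt-2 and lon-3 in C. elegans and rol-8 and lon-3 in C. briggsae reached 1 RPKM in embryos alone. dpy-4 did so in C. briggsae L1 alone. Each passed the filter only through that group, so its part in the counts is a description.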

How the data were processed

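Poly(A) RNA-seq libraries of staged C. elegans and C. briggsae were compared through the deposited RPKM values, which the authors scaled by gene model length and mapped reads. Per the submitters' processing notes the aligner was BWA, version 0.5.7. Genome build, annotation, counting rule, strandedness and ortholog source are not stated, so reads shared between near-identical collagens could be split unevenly. Depth is unknown, and no sample column was left unused (0). Of 13938 IDs with C. briggsae values, 125 with values identical to another ID were dropped, which left 13813 ortholog pairs. Names came from RefSeq by locus tag and coordinates from Ensembl, matched by sequence name.

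Tests ran on log2(RPKM + 1), a scale on which differences of low genes are understated, with libraries of a culture averaged on that scale. Levels, folds and SDs use plain RPKM. Genes with at least 1 RPKM in 2 of the samples compared were tested in R 4.3.3 with limma 3.58.1 (lmFit and trended eBayes), with Benjamini-Hochberg adjustment over all genes and a threshold of 0.05. Embryo against L1 was fitted per species on 2 cultures each, the species difference as an interaction over 8 cultures, and the stage steps with species and stage as additive terms over 14 samples of culture A (6 residual degrees of freedom). Means ± SD are over cultures. Single-library steps, and species contrasts at a stage, are called at 2-fold on log2(RPKM + 1), among genes with at least 1 RPKM in either stage or species. The fits were tested on simulated data.

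The sample titles give the letters A and B, taken here as time courses that pair embryo and L1 samples. The deviations of A from B correlated between the stages at r = -0.01 over 10652 genes in C. elegans and 0.12 over 7306 in C. briggsae. Members and gene lists were chosen with earlier results of these data known. All 6 members are named in every comparison, up to 3 genes of a list by size of change, and for likeness the 8 genes with the highest lower r, with 3 per species, among genes with a log2 range of at least 2. Alternatives were other pseudocounts, no filter, quantile and median-ratio scaling, a replicate block, single libraries, both cultures averaged, and leaving out each sample. The remaining work ran in Python 3.11.15 (pandas 2.3.3, numpy 2.4.6, scipy 1.17.1, matplotlib 3.10.9).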

Additional observations from a re-analysis of the deposited data

Results flagged for a closer look

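The embryo minus L1 difference was tested between the species, and dpy-2, dpy-3, dpy-7 and dpy-10 differed. C. briggsae minus C. elegans, the values were -4.25 for dpy-2, -5.22 for dpy-3, -3.37 for dpy-7 and -3.43 for dpy-10 (limma, interaction over 8 cultures, adjusted p from 0.00134 to 0.00868). dpy-8 gave -1.46, but it entered the fit only through C. briggsae L1, where it is high at 1.87 RPKM, so this value supports no difference.

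From L3 to early L4 every member moved in opposite directions in the species, from 1 library each, so the difference was not tested. The C. elegans values on log2(RPKM + 1) were 1.79 for dpy-2, 0.89 for dpy-3, 1.97 for dpy-7, 0.97 for dpy-8, 1.93 for dpy-9 and 2.07 for dpy-10. The C. briggsae values in the same order were -1.63, -1.98, -2.17, -1.78, -1.75 and -1.86. By sign alone 2984 of 10508 ortholog pairs moved in that direction and 3223 in the opposite one.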

How the results depend on the processing

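Of 626 member values under an alternative, 560 kept their direction and their side of the threshold, 32 lost a call, 5 gained one and 29 changed sign. Of the sign changes, 28 lie among 216 values of L3 to L4, L4 to LL4 and the species term, where no member was called and 0 alternatives called one. For L3 to L4 quantile normalization gave -0.10, -0.049 and -0.058 and median-ratio scaling -0.029, -0.017 and -0.0050 for dpy-2, dpy-9 and dpy-10. With a library left out, the L3 to L4 value ran from -1.45 to 1.61 (dpy-2), -2.03 to 0.94 (dpy-3), -1.79 to 1.59 (dpy-7), -1.60 to 0.79 (dpy-8), -1.38 to 1.57 (dpy-9) and -1.68 to 1.89 (dpy-10). The L4 to LL4 value ran from -3.05 to 0.58, -2.71 to 0.99, -2.73 to 0.90, -3.01 to 1.39, -2.84 to 0.75 and -2.84 to 0.59 in the same order, positive without the C. briggsae late L4 library. With a stage left out, the species term ran from -0.94 to 0.013 (dpy-2), -0.83 to 0.24 (dpy-3) and -0.44 to 0.53 (dpy-8). With a culture left out, dpy-9 in C. elegans embryos against L1 ran from -0.11 to 1.02.

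Members called in C. briggsae embryos against L1, here with dpy-8, numbered 5, 3 under median-ratio scaling and 0 to 5 with a culture left out. From late L4 to young adults they numbered 5, 2 with a pseudocount of 4, 3 with cultures A and B averaged, and 0 to 5 with a library left out. In C. elegans L2 5 members were at least 2-fold above L1, and 3 with L1 library A1 alone, while the other 91 of 92 single-library counts, added after seeing the data, stayed within 1.5 times. With the replicate block, which the paired time courses allow, members called numbered 4 in C. elegans, 5 in C. briggsae and 5 in the interaction (both with dpy-8), as without it, and no member call changed. Genes called in C. briggsae numbered 8835, but 5122 and 5286 without L1 culture A or B. From late L4 to young adults 1072 genes were called, and 333, 272 and 391 without the C. elegans late L4, C. elegans young adult or C. briggsae late L4 library. In the L1 to L2, L3 to L4 and L4 to LL4 steps, with 0 genes called, single alternatives called 1 to 9. The median of all genes in embryos against L1 moved by -0.26 and -0.36 in C. elegans and by 0.23 and -0.50 in C. briggsae under quantile and median-ratio scaling. The cause of these changes was not tested. Unknown depth limits the values under 1 RPKM, above all in young adults and in dpy-8 and dpy-9 of embryos.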
